A study of Mus musculus with 12 samples.

Results

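Potassium channels set the resting potential of neurons, end each action potential and limit how often a neuron fires. The genes described here are 36 potassium channel genes of the mouse dorsal root ganglion, where the cell bodies of sensory neurons lie, taken from a given list of names. They are 6 Kv1 pore genes with 2 of their beta subunits, Kcnb2 with 6 silent subunits, 3 Kv3 genes, 5 genes of the EAG and ERG families, 2 Kv7 genes, 7 genes of calcium- or sodium-activated channels or their subunits, and 4 two-pore or inward rectifier genes. All 36 were among the 35583 genes listed in the deposited tables, and 35 of them were among the 14837 genes tested, which averaged 0.5 CPM (counts scaled to a common library total) or more over the 12 libraries. Poly(A) RNA of ganglia was sequenced from YAC Q84 mice (1 library from a male and 5 from females) and from wild-type (WT) mice (3 from males and 3 from females), all aged 24 weeks. The transgene of YAC Q84 mice is the human ATXN3 gene with an expanded CAG repeat on a yeast artificial chromosome, under the human gene's own regulatory sequence, and the mice are a model of spinocerebellar ataxia type 3. Their own mouse Atxn3 gene is still present, and the labels do not give the copy number of the transgene. The labels do not say that libraries came from separate animals, so the p-values here reflect how far libraries spread, which may be in part technical.

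Voltage-gated channels are built as tetramers of pore subunits. Kv1 channels sit beside the nodes of myelinated axons and in cell bodies and hold back repetitive firing. Kv2 channels repolarise the cell body, and the silent subunits (Kv5, Kv6, Kv8 and Kv9) form no channel alone but join Kv2 subunits and change how they open. Kv3 channels switch fast and allow rapid firing, EAG and ERG channels shape slow repolarisation, and Kv7 channels carry the M-current that damps excitability. Channels opened by calcium or sodium add the after-hyperpolarisation, two-pore channels carry background current, and G-protein-gated inward rectifiers respond to inhibitory receptors.

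The libraries held 66490481 to 86891563 estimated counts. The genotype was checked on a 1000-base transcript of Atxn3 onto which reads of the human transgene can be placed. It lay between 62.7 and 79.4 TPM (abundance per transcript length, scaled to a fixed sum) in the Q84 male and in Q84 females 1 to 4, against 0.285 TPM or less in 5 of the 6 WT libraries. By contrast, 0.0612 TPM was found in the library labelled Q84 female 5 and 34.0 TPM in the library labelled WT female 2, so both went against their labels. Counts of calls and the members that passed are therefore given for all 12 libraries as labelled and for the 10 others, of which 5 are Q84 and 5 are WT. Fold changes of the remaining members are for the 10 libraries, and so are ranges unless said otherwise. No library was moved to another group. The mitochondrially encoded share of counts was 9.72% ± 0.846 in the 5 Q84 libraries and 7.90% ± 1.03 in the 5 WT libraries (SD, n = 5 each), with p = 0.0238 in a two-sided exact permutation test. Over the 12 libraries it was 10.1% ± 1.14 in Q84 and 7.83% ± 0.935 in WT (SD, n = 6 each), with p = 0.00649 in that exact permutation test, and its part in the results below was not tested. The permutation test took no account of sex, in which the groups differ.

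Per transcript length, the most abundant of the 36 genes was Kcnab1, a cytosolic beta subunit that speeds the inactivation of Kv1 channels, with 88.9 ± 13.9 TPM in the 5 Q84 libraries and 146 ± 23.4 TPM in the 5 WT libraries (SD, n = 5 each). The silent subunit gene Kcns3 came second in WT with 35.0 ± 2.07 TPM in Q84 and 62.0 ± 3.28 TPM in WT, and it lay close to Kcnk1, which codes for a weak two-pore background channel and had 45.7 ± 5.10 TPM in Q84 and 61.6 ± 3.44 TPM in WT, so that in WT they did not differ beyond their spread. In the 5 Q84 libraries Kcnk1 stood above Kcns3. A middle band followed, of Kcnab2 (26.8 TPM in Q84, 31.6 TPM in WT), Kcna6 (26.4 TPM in Q84, 27.7 TPM in WT), Kcna2, Kcna1, Kcnv1 and Kcnh7, all between 23.6 and 31.6 TPM in WT, where neighbours in the order lay within their spread. Kcnn3, a calcium-activated channel of small conductance, was lowest of the tested members in WT, with 0.333 TPM in Q84 and 0.409 TPM in WT.

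**Figure D1:**
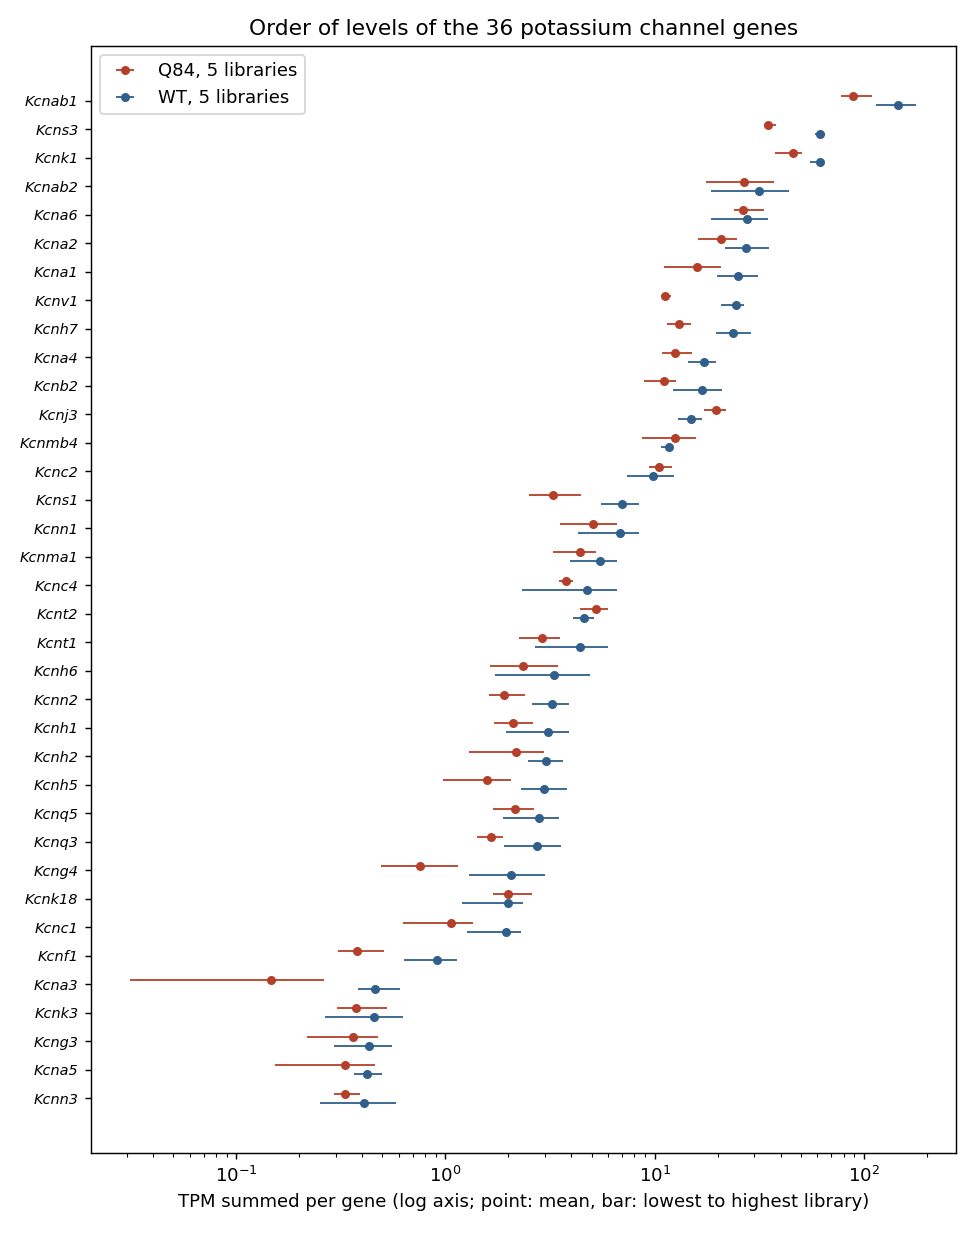
Level of each potassium channel gene in TPM on a log axis, in the 5 Q84 and the 5 WT libraries whose Atxn3 level went with the label. Points are means and bars run from the lowest to the highest library. Kcnab1 is highest at 88.9 TPM in Q84 and 146 TPM in WT, and the Q84 and WT bars of Kcns3 and Kcnv1 lie apart.

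In the comparison of Q84 with WT, potassium channel genes were mostly lower in Q84, and the silent subunits with Kcnb2 had the lowest median of the 7 subfamilies. In the 10 libraries, 11 of the 35 tested members fell and 1 rose at an adjusted p under 0.05, and 23 did not pass (edgeR quasi-likelihood test, Benjamini-Hochberg adjustment over all genes). Those that fell are 31.4% of the tested members, while 5.63% of all tested genes fell and 1.77% rose. The 11 were Kcna1, Kcnab1, Kcnf1, Kcng4, Kcns1, Kcns3, Kcnv1, Kcnc1, Kcnh5, Kcnh7 and Kcnk1, and Kcnj3 rose. The median log2 fold change of the 35 members was -0.35, against 0.02 over all tested genes, and 29 of them (82.9%) lay below 0, against 46.4% of all genes. Every Q84 library lay below every WT library in 12 members, against 6.71% of all genes, and above every WT library in 2, against 2.96% of all genes. In bulk ganglia, fewer cells of a type and less RNA per cell cannot be told apart.

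In the 12 libraries as labelled, no member passed: 0 of 35 were called, against 0.00674% of all genes called lower and 0% called higher. In 1 member, Kcnh5, all Q84-labelled libraries lay below all WT-labelled ones, against 1.05% of all genes, and in 0 members above them, against 0.519%. At an unadjusted p under 0.05, 10 members were lower and 2 were higher in Q84, against 8.36% and 6.61% of all genes, and the smallest adjusted p was 0.0911, for Kcnh5 (edgeR). DESeq2 called 6 of them lower (Kcng4, Kcns1, Kcns3, Kcnv1, Kcnh5 and Kcnk1) against 2.76% of all genes lower and 0.964% higher by DESeq2. On simulated counts DESeq2 made more false calls than its threshold allows. Those counts used spreads estimated by edgeR and held no library that goes against its label, unlike these data. By limma-voom 0 members were called, against 0.00674% of all genes lower and 0% higher. The median log2 fold change was -0.23 in the 12 libraries, against 0.02 over all genes, and again 29 of 35 members lay below 0, against 45% of all genes. Leaving out the library labelled Q84 female 5 alone gave 13 lower members, the 11 above with Kcna4 and Kcnn2, and 0 higher, against 5.32% of all genes lower and 1.58% higher. Without the library labelled WT female 2 alone, 1 member passed, Kcns3, which was lower, against 0.337% of all genes lower and 0.0876% higher.

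**Figure D2:**
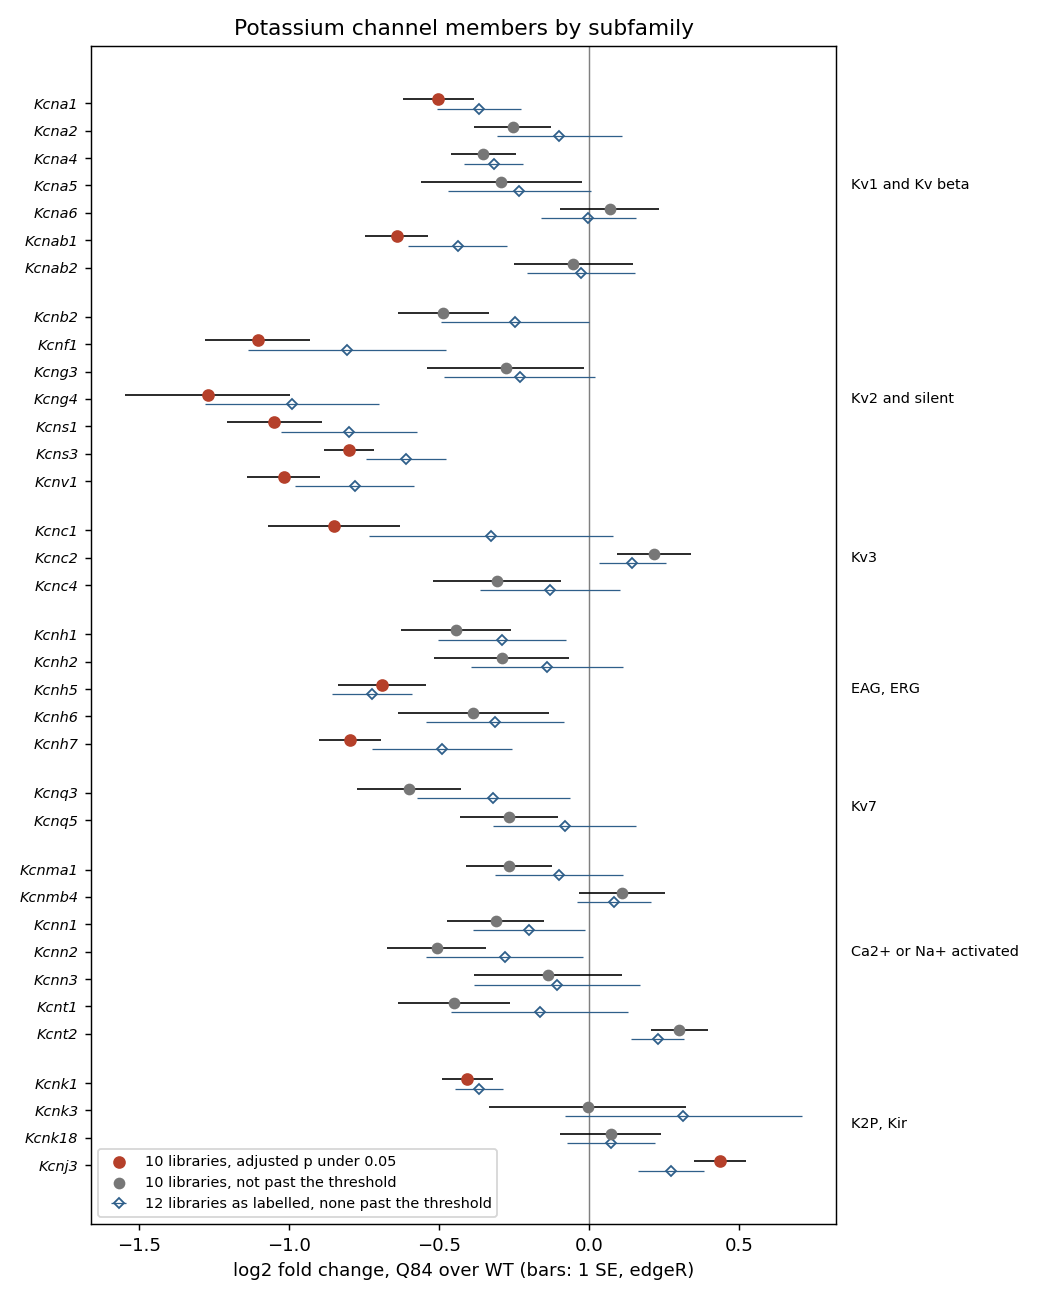
Log2 fold change of Q84 over WT with its standard error for each tested member, grouped by subfamily, in the 10 libraries and in all 12. The lowest values in the 10 libraries are those of the silent subunits Kcng4, Kcnf1, Kcns1 and Kcnv1, and the values of all 12 libraries are mostly nearer to 0.

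Of the silent subunits and Kcnb2, 5 of 7 genes fell in the 10 libraries and none rose, with a median log2 fold change of -1.02. Kcns3, which codes for a Kv9 subunit, had the smallest adjusted p of all members. Its level was 50.2, 58.5, 62.8, 61.1 and 52.5 CPM in the Q84 male and Q84 females 1 to 4, against 101, 97.6, 99.9, 93.0 and 97.6 CPM in WT males 1 to 3 and WT females 1 and 3. All 5 Q84 values lay far below all 5 WT values, with a mean of 57.0 ± 5.44 CPM in Q84 and 97.8 ± 3.03 CPM in WT (SD, n = 5 each). The log2 fold change was -0.80 (SE 0.08, adjusted p = 0.000121) in the 10 libraries and -0.61 (SE 0.13, adjusted p = 0.113) in the 12. The library labelled Q84 female 5 (83.5 CPM) and the library labelled WT female 2 (73.7 CPM) both fell in the gap between the groups.

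Kcnv1, a Kv8 subunit gene, had 27.7, 33.9, 32.1, 39.2 and 31.3 CPM in the Q84 male and females 1 to 4, against 75.4, 69.8, 62.0, 55.9 and 67.6 CPM in the same WT libraries. The groups did not overlap, and the Q84 mean was 49.7% of the WT mean. Its log2 fold change was -1.02 (SE 0.12, adjusted p = 0.000318), and in the 12 libraries it was -0.78 (SE 0.20, adjusted p = 0.134). Here the library labelled Q84 female 5 stood among WT at 62.1 CPM, and the library labelled WT female 2 was at 55.1 CPM, just under the lowest WT value. Kcns1, another Kv9 subunit gene, is known in rodents from sensory neurons with myelinated axons. It had 5.94, 5.23, 5.80, 5.25 and 8.06 CPM in Q84, against 10.8, 11.5, 14.5, 13.8 and 11.3 CPM in WT, with no overlap. Its log2 fold change was -1.05 (SE 0.16, adjusted p = 0.00147) in the 10 libraries and -0.80 (SE 0.23, adjusted p = 0.155) in the 12, and the library labelled Q84 female 5 had 12.5 CPM, a WT-range value.

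Kcnf1, the only Kv5 gene, and Kcng4, a Kv6 gene, had few counts. Kcnf1 had 1.56, 1.31, 1.17, 1.18 and 1.19 CPM in Q84, against 2.28, 3.54, 3.51, 2.99 and 2.46 CPM in WT. No Q84 value reached the lowest WT value, and the log2 fold change was -1.10 (SE 0.17, adjusted p = 0.00206), against -0.81 (SE 0.33, adjusted p = 0.283) with all 12 libraries, where the library labelled Q84 female 5 was highest of all at 3.94 CPM. Kcng4 had 1.95, 1.54, 2.06, 1.47 and 3.00 CPM in Q84, against 3.64, 6.59, 7.38, 4.93 and 3.73 CPM in WT. The groups lay apart, but WT values spread over a wide range, with a mean of 2.01 ± 0.611 CPM in Q84 and 5.26 ± 1.68 CPM in WT (SD, n = 5 each). Its log2 fold change was -1.27 (SE 0.28, adjusted p = 0.0149), and -0.99 (SE 0.29, adjusted p = 0.157) in the 12 libraries. The 10-library call was lost without WT female 1 and without the Q84 male.

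Both genes of this subfamily that did not pass were also below 0. Kcnb2, the Kv2 pore partner of the silent subunits, had 91.6 to 140.2 CPM in Q84 and 134.0 to 201 CPM in WT, with a log2 fold change of -0.49 ± 0.15 (SE) at an adjusted p of 0.0816. Kcng3 stood at 0.512 to 1.24 CPM in Q84 and 0.714 to 1.24 CPM in WT, with a log2 fold change of -0.28 ± 0.26 (SE) at an adjusted p of 0.612. It averaged 0.977 CPM over the 12 libraries, close to the lower limit of 0.5 CPM for testing.

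**Figure D3:**
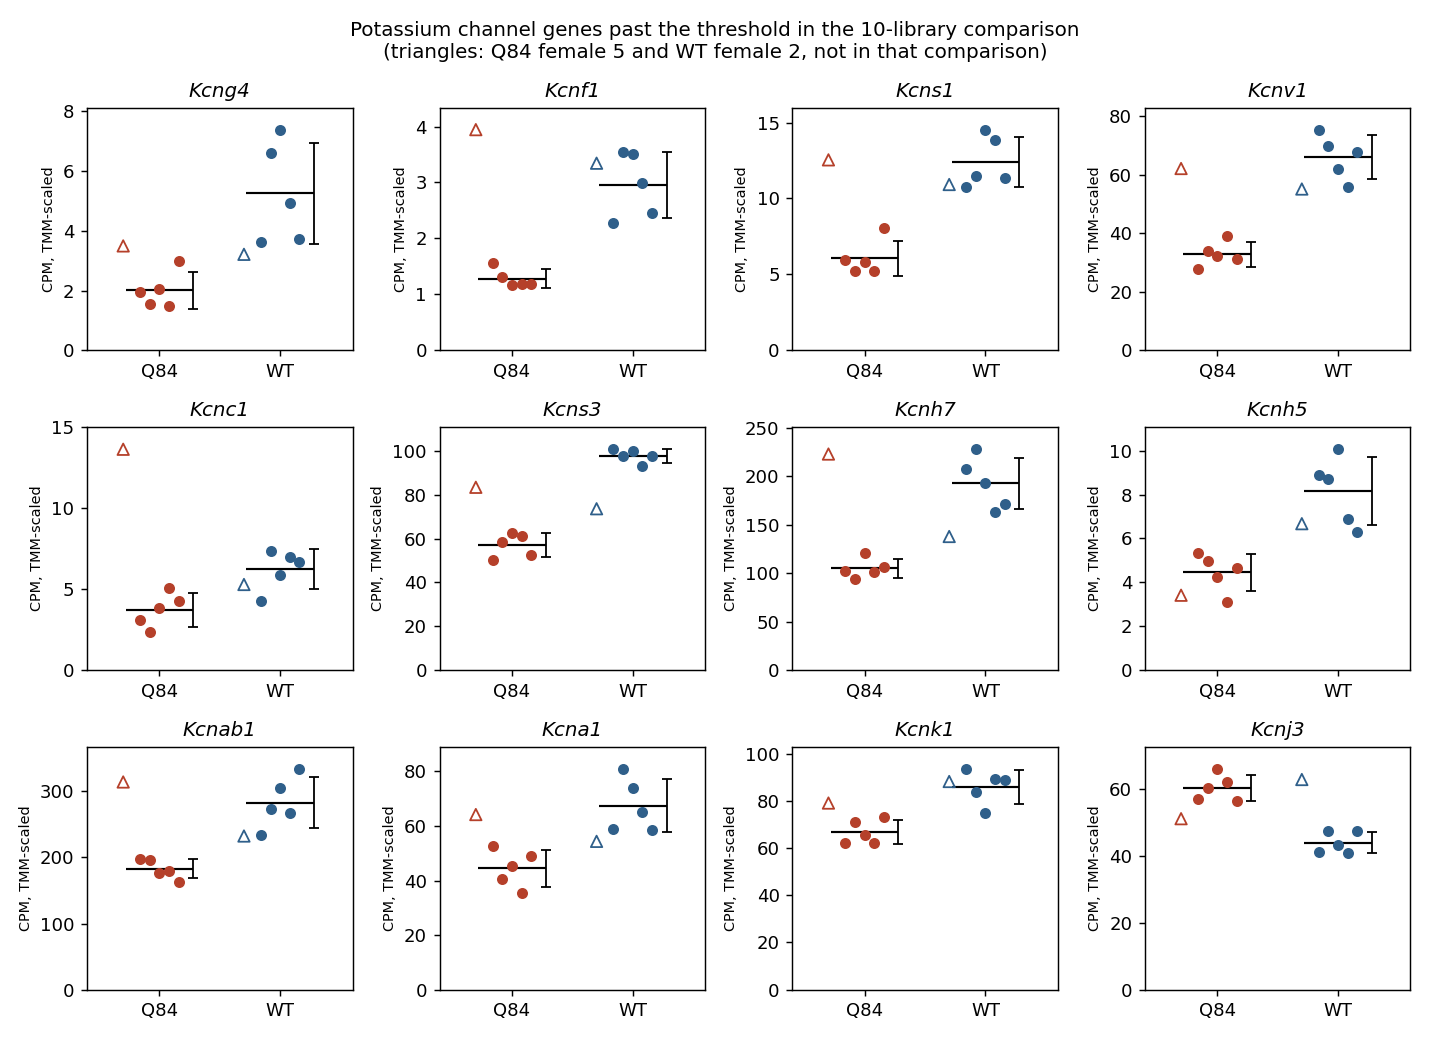
CPM of potassium channel genes in each library, for the 12 members past the threshold in the 10 libraries, with Q84 left of WT. Points are single libraries, lines and bars the mean and SD of 5, and open triangles the libraries labelled Q84 female 5 and WT female 2. For Kcns3, Kcnv1 and Kcnh7 the 5 Q84 points lie below all 5 WT points, while Kcnj3 lies the other way.

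The start regions of 4 silent subunit genes that fell, and of Kcnj3, the member that rose, are shown to let their letters be compared. They span 250 bases before to 50 after the RefSeq start in GRCm38.p6, a build other than that of the deposited files, and are written 5′ to 3′ on the strand of the gene. Kcnf1 is at chr12:17176839-17177138 (minus strand), Kcng4 at chr8:119635631-119635930 (minus), Kcns1 at chr2:164171064-164171363 (minus), Kcns3 at chr12:11150793-11151092 (minus) and Kcnj3 at chr2:55435720-55436019 (plus). Capitals mark the GC box, GGGCGG on either strand. For Kcns3 the most upstream of 2 listed start regions is shown.
Kcnf1: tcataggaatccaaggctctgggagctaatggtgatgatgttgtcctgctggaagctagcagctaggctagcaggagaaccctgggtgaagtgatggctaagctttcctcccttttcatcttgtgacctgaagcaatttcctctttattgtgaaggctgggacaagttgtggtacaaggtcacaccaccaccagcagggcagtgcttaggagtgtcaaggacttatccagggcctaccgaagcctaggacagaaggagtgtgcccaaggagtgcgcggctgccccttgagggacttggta
Kcng4: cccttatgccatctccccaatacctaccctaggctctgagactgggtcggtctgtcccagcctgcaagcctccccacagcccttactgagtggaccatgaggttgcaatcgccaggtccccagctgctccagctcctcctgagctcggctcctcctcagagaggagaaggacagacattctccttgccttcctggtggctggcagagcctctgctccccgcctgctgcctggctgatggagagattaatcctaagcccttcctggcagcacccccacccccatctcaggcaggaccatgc
Kcns1: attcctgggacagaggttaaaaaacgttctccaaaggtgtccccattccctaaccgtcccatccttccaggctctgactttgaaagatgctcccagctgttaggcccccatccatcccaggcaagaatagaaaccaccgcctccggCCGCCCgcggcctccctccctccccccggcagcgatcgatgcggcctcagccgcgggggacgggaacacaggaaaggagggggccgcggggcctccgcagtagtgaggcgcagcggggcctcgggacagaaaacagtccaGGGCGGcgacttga
Kcns3: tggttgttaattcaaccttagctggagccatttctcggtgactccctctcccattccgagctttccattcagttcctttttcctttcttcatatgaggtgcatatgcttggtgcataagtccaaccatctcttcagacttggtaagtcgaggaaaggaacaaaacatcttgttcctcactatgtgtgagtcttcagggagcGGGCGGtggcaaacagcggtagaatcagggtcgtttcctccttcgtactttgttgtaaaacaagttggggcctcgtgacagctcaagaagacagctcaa
Kcnj3: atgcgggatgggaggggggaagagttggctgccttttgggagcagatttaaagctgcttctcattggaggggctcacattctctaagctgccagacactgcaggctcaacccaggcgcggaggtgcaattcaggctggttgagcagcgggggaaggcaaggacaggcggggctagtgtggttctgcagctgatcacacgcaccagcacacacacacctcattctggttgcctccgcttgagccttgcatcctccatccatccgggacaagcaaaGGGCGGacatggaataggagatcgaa
Kcns1 held 2 GC boxes, Kcns3 and Kcnj3 1 each, and Kcnf1 and Kcng4 none. A GC box stood in the start region of 20 of the 29 members with a listed region and of 6 of the 9 such members that fell (Kcnab1, Kcnc1, Kcnh5, Kcnh7, Kcns1 and Kcns3), against 38.2% of all 27025 genes. CCAAT was found in 10 of the 29 members and 2 of the 9, against 41.1% of all genes, and TATAAA in 1 and 1, against 15.7%. Of 7 other motifs, TGTGGT was found in 5 members (18.9% of all genes), GGACAGC in 3 (7.59%), CACGTG in 1 (8.09%) and TCAGCACC in 1 (1.85%). TGACGTCA, TAATTA and GCGTGGGCG were found in no member, against 2.03%, 6.12% and 0.707% of all genes. All motifs were searched on both strands, and no motif contains another. The median GC content of the start regions was 62.3% for members, 57.2% for members that fell and 52.7% for all genes. These matches describe letters only and name no factor bound there.

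Of the Kv1 group, 2 of 7 tested genes fell and none rose in the 10 libraries, with a median log2 fold change of -0.29. Kcna1, a pore gene of channels beside the nodes of myelinated axons, had 52.6, 40.5, 45.2, 35.5 and 48.9 CPM in Q84, against 58.9, 80.9, 73.9, 65.0 and 58.6 CPM in WT. The highest Q84 value stayed under the lowest WT value, and the log2 fold change was -0.50 (SE 0.12, adjusted p = 0.0221), against -0.37 (SE 0.14, adjusted p = 0.246) in the 12 libraries. The call was lost when the Q84 male, WT female 1 or WT female 3 was left out. Kcnab1 had 198, 196, 177, 179.7 and 163 CPM in Q84, against 235, 273, 305, 267 and 334 CPM in WT, again with no overlap. Its log2 fold change was -0.64 (SE 0.11, adjusted p = 0.00261) in the 10 libraries and -0.44 (SE 0.17, adjusted p = 0.246) in the 12, where the library labelled Q84 female 5 had 314 CPM.

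The other Kv1 genes did not pass. Kcna4, a fast-inactivating Kv1 pore gene, had 33.3 to 43.4 CPM in Q84 and 43.6 to 57.0 CPM in WT, so the groups only just failed to overlap, with a log2 fold change of -0.35 ± 0.11 (SE) at an adjusted p of 0.0741. Kcna2, a frequent partner of Kcna1, had a log2 fold change of -0.25 (adjusted p = 0.287) and Kcna5 of -0.29 (adjusted p = 0.601). Values near 0 were found for Kcna6, with a log2 fold change of 0.07 (adjusted p = 0.874), and for the beta subunit gene Kcnab2, with -0.05 (adjusted p = 0.919). Kcna3, known best from lymphocytes, averaged 0.347 CPM over the 12 libraries and was not tested. It had 0.0394 to 0.328 CPM in the 5 Q84 libraries and 0.452 to 0.699 CPM in the 5 WT libraries, and 0.739 CPM for Kcna5 was the lowest mean among the tested members.

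Of the 5 EAG and ERG genes, 2 fell, and all 5 lay below 0, with a median log2 fold change of -0.44. Kcnh7, an ERG pore gene, had 102, 94.0, 121, 101 and 107 CPM in Q84, against 207, 228, 193, 163 and 172 CPM in WT. The groups stood well apart, at 105 ± 9.90 CPM in Q84 and 193 ± 26.1 CPM in WT (SD, n = 5 each). The log2 fold change was -0.80 (SE 0.10, adjusted p = 0.000457) in the 10 libraries and -0.49 (SE 0.23, adjusted p = 0.352) in the 12, where the library labelled Q84 female 5 had 223 CPM and that labelled WT female 2 had 138 CPM. Kcnh5, an EAG pore gene, had 5.32, 4.97, 4.24, 3.12 and 4.67 CPM in Q84, against 8.91, 8.73, 10.1, 6.89 and 6.28 CPM in WT.

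Kcnh5 was the single member whose 6 Q84-labelled libraries all lay below all 6 WT-labelled libraries. The library labelled Q84 female 5 had 3.41 CPM, within the Q84 range, and the library labelled WT female 2 had 6.68 CPM, within the WT range. Its log2 fold change was -0.69 (SE 0.15, adjusted p = 0.0133) in the 10 libraries and -0.72 (SE 0.13, adjusted p = 0.0911) in the 12. The 10-library call was lost without WT female 1 and without the Q84 male. Kcnh1, Kcnh2 and Kcnh6 had log2 fold changes of -0.44, -0.29 and -0.39 and did not pass (adjusted p = 0.184, 0.520 and 0.426).

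Among the 3 Kv3 genes, Kcnc1, known from fast-firing neurons, fell. It had 3.11, 2.37, 3.84, 5.07 and 4.26 CPM in Q84, against 4.25, 7.34, 5.90, 7.0 and 6.70 CPM in WT, and the highest 2 Q84 libraries lay above the lowest WT library. The log2 fold change was -0.85 (SE 0.22, adjusted p = 0.0364), and the call was lost in 7 of the 10 fits that leave out a library (the Q84 male, Q84 females 2 and 4, WT males 2 and 3, WT females 1 and 3). With all 12 libraries it was -0.33 (SE 0.41, adjusted p = 0.761), and the library labelled Q84 female 5 had 13.6 CPM, above every other library. Kcnc2, with a log2 fold change of 0.22 (adjusted p = 0.352), and Kcnc4, with -0.31 (adjusted p = 0.46), did not pass.

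Neither Kv7 gene passed in the 10 libraries. Kcnq3, a pore gene of the M-current, had 13.6, 11.1, 15.3, 13.4 and 11.98 CPM in Q84, against 15.6, 27.0, 27.5, 18.3 and 18.4 CPM in WT. The groups did not overlap, but the gap between the nearest libraries was small and WT spread widely. The log2 fold change was -0.60 (SE 0.17, adjusted p = 0.0578), and the library labelled Q84 female 5 had 27.7 CPM, the highest of all. Kcnq5, another M-current pore gene, had 10.7, 7.58, 8.71, 9.27 and 10.9 CPM in Q84, against 8.71, 14.2, 13.9, 10.2 and 12.4 CPM in WT. These ranges overlapped, and its log2 fold change was -0.27 (adjusted p = 0.387).

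None of the 7 genes of calcium- and sodium-activated channels passed, and their median log2 fold change was -0.27. Kcnt2, a sodium-activated channel gene, had 18.3, 21.5, 19.1, 18.7 and 18.2 CPM in Q84, against 15.4, 17.4, 14.6, 15.1 and 15.3 CPM in WT, with no overlap and a log2 fold change of 0.30 ± 0.09 (SE) at an adjusted p of 0.0832. Kcnt1, the related channel gene, had 5.84 to 9.74 CPM in Q84 and 8.52 to 15.3 CPM in WT, with a log2 fold change of -0.45 (adjusted p = 0.187). Whether the 2 genes differ in their change was not tested.

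Kcnn2, a small-conductance calcium-activated channel gene, had 2.94, 2.67, 3.82, 3.43 and 2.86 CPM in Q84, against 5.43, 5.48, 5.26, 4.13 and 3.79 CPM in WT. Its ranges overlapped at the edge, and the log2 fold change was -0.51 (SE 0.17, adjusted p = 0.0922). Kcnn1 (-0.31, adjusted p = 0.300) and Kcnn3 (-0.14, adjusted p = 0.816) had smaller log2 fold changes. The pore gene of the large-conductance channel, Kcnma1, had 25.04 to 38.4 CPM in Q84 and 33.1 to 47.3 CPM in WT, with a log2 fold change of -0.27 (adjusted p = 0.323), and its beta subunit gene Kcnmb4 had one of 0.11 (adjusted p = 0.735).

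Of the two-pore and inward rectifier genes, 1 fell and 1 rose. Kcnk1 had 62.1, 71.1, 65.6, 62.0 and 73.1 CPM in Q84, against 93.6, 83.9, 74.7, 89.2 and 88.9 CPM in WT. All Q84 values were lower than all WT values, by a small step at the nearest pair, and the log2 fold change was -0.41 (SE 0.08, adjusted p = 0.0110) in the 10 libraries and -0.37 (SE 0.08, adjusted p = 0.113) in the 12. Its call was lost without the Q84 male and without WT female 3. Kcnj3, a subunit of the G-protein-gated channel that opioid and other inhibitory receptors open, had 57.0, 60.3, 66.1, 62.1 and 56.4 CPM in Q84, against 41.2, 47.5, 43.2, 40.9 and 47.6 CPM in WT. All Q84 values stood above all WT values, with a log2 fold change of 0.43 ± 0.09 (SE) at an adjusted p of 0.00839 in the 10 libraries and 0.27 (SE 0.11, adjusted p = 0.271) in the 12.

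For Kcnj3 the library labelled Q84 female 5 had 51.2 CPM, between the groups, and the library labelled WT female 2 had 62.9 CPM, among the Q84 libraries. The 10-library call was lost without WT female 1. Kcnk3, an acid-sensitive background channel gene, had a log2 fold change of -0.01 (adjusted p = 0.995), and Kcnk18, a calcineurin-regulated background channel gene of sensory neurons, had one of 0.07 (adjusted p = 0.870).

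**Figure D4:**
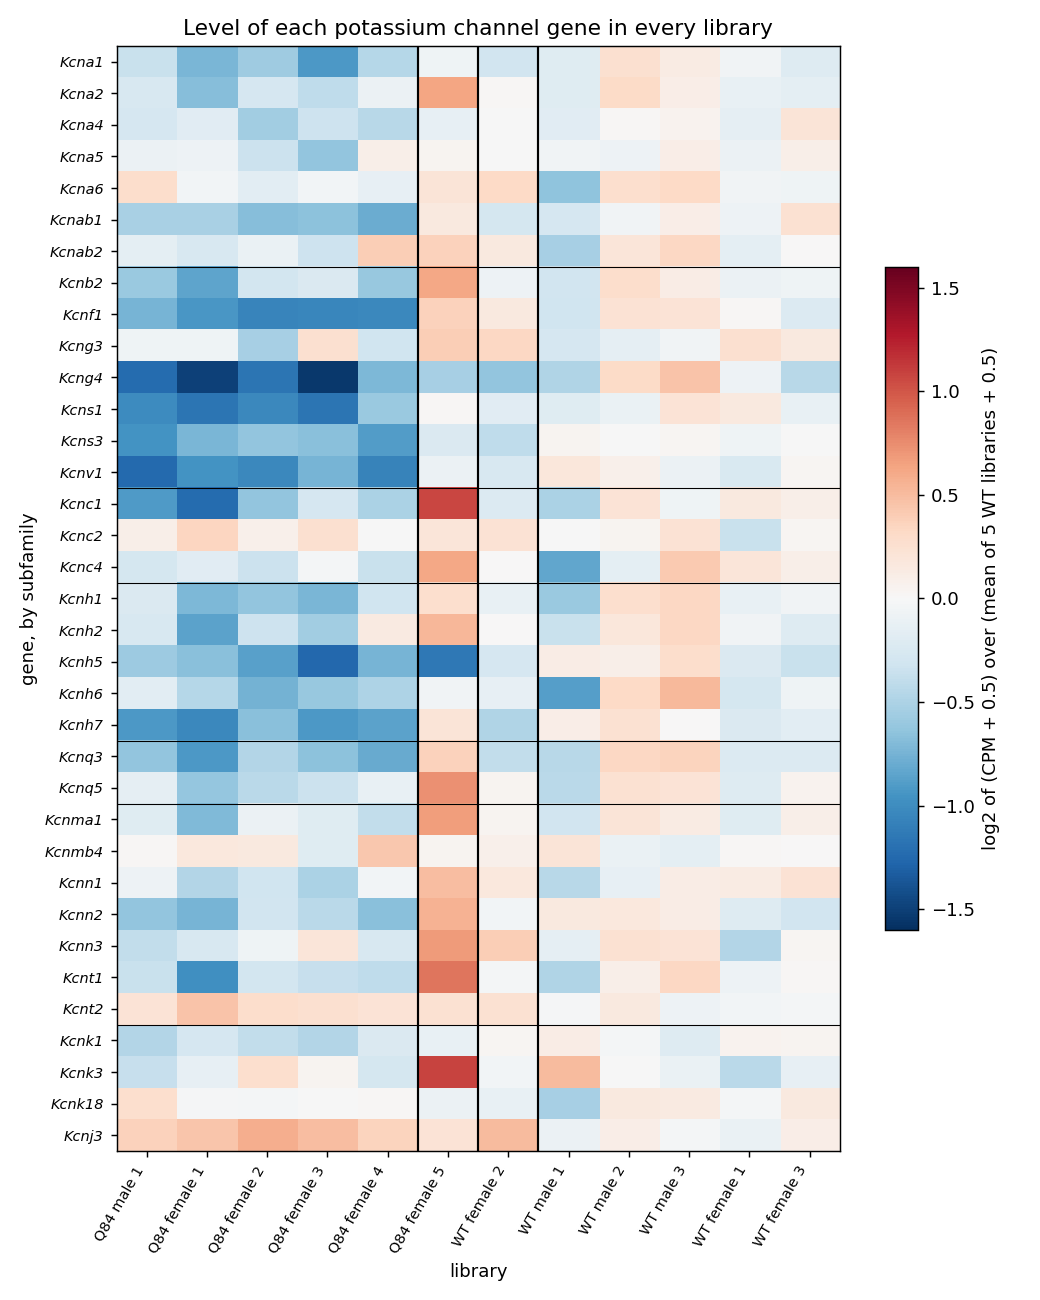
Log2 of CPM + 0.5 in each library over the mean of the 5 WT libraries, for each tested potassium channel gene (rows, by subfamily), with the libraries labelled Q84 on the left and those labelled WT on the right. Blue is lower and red is higher than the WT mean. The column of the library labelled Q84 female 5 stands apart from the other Q84 columns, and it is highest of all 12 libraries in 15 of the 35 tested members. How often it is highest over all genes was not computed.

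The library labelled Q84 female 5 lay at or above the lowest of the 5 WT libraries in 32 of the 35 tested members. For this and the counts below, the share over all genes was not computed. In many members the Q84 and WT ranges overlapped, and in some of the 32 this library was also within or below the 5 Q84 libraries. Examples are Kcnab2, Kcnc2, Kcnk18 and Kcnj3. Among the 11 members that fell, it reached the lowest WT library in 8. In 2 of the 11 (Kcng4 and Kcns3) it lay above the 5 Q84 and below the 5 WT libraries, and in 1 (Kcnh5) within the 5 Q84 libraries. The library labelled WT female 2 lay within the range of the 5 other WT libraries in 24 members, below it in 6 and above it in 5. Among the 11 members that fell, it was below the WT range in 6 and within it in 5. Both libraries were set apart for their Atxn3 transcript and not for these genes.

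The transcripts named here had means that ran the same way as their gene. For Kcns3, the 2314-base transcript had 23.7 ± 1.52 TPM in Q84 and 42.0 ± 3.41 TPM in WT, and the 2933-base one had 4.99 ± 0.705 TPM in Q84 and 10.6 ± 1.12 TPM in WT (SD, n = 5 each). The 13321-base transcript of Kcnh7 had 10.1 ± 1.24 TPM in Q84 and 19.7 ± 2.98 TPM in WT, and its 3073-base transcript had 2.59 ± 0.358 TPM in Q84 and 3.69 ± 0.691 TPM in WT (SD, n = 5 each). For Kcnj3 the 4068-base transcript had 10.1 ± 1.97 TPM in Q84 and 6.70 ± 0.661 TPM in WT, while the 5215-base one had 7.98 ± 1.27 TPM in Q84 and 6.75 ± 1.15 TPM in WT (SD, n = 5 each). The 1725-base transcript of Kcnn2 made up 28.3% ± 14.5 of the gene's TPM in Q84 and 45.8% ± 8.54 in WT (SD, n = 5 each). Its mean level was low, at 0.515 TPM in Q84 and 1.45 TPM in WT. Transcript values are estimates of how reads divide between overlapping transcripts, and they were not tested.

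A second list of 55 further potassium channel genes served for comparison. Of these, 31 were tested. In the 10 libraries 8 fell (25.8%) and 0 rose by edgeR, against 5.63% and 1.77% of all genes. The median log2 fold change of the 31 was -0.25. At an unadjusted p under 0.05, 10 were lower and 2 higher, against 12.6% and 8.52% of all genes. Kcnmb1, a beta subunit of the large-conductance calcium-activated channel known from smooth muscle, had the smallest adjusted p. It had 14.2 to 20.1 CPM in Q84 and 41.3 to 64.2 CPM in WT (45.0 CPM in the library labelled Q84 female 5 and 26.5 CPM in that labelled WT female 2), with a log2 fold change of -1.56 ± 0.13 (SE) at an adjusted p of 2.3e-05. Kcns2, the remaining Kv9 gene, fell with a log2 fold change of -1.01 (adjusted p = 0.00310), and Kcng2, a Kv6 gene, with -1.34 (adjusted p = 0.00531). The inward rectifiers Kcnj4 (-1.95, adjusted p = 0.00229) and Kcnj12 (-0.93, adjusted p = 0.00794) and the two-pore genes Kcnk13 (-0.60, adjusted p = 0.0137) and Kcnk10 (-0.51, adjusted p = 0.0180) fell too. Kcnj4 averaged 0.525 CPM over the 12 libraries, close to the lower limit of 0.5 CPM for testing. It reached that limit only with the library labelled Q84 female 5, which the 10-library fit leaves out. Its means were 0.166 CPM in the 5 Q84 and 0.737 CPM in the 5 WT libraries, so its fold change rests on few counts. The call was lost for Kcnk10 without the Q84 male, WT female 1 or WT female 3, and for Kcnk13 and Kcnj12 without WT female 3. In the 12 libraries 0 of the 31 passed by edgeR, against 0.00674% of all genes lower and 0% higher. At an unadjusted p under 0.05, 5 were lower and 2 higher there, against 8.36% and 6.61% of all genes. The log2 fold change of Kcnj4 was then -0.63 (SE 0.76, adjusted p = 0.754), and the library labelled Q84 female 5 was highest of all at 1.54 CPM, while the 5 other Q84 libraries had 0.0714 to 0.257 CPM and the 5 WT libraries 0.576 to 1.002 CPM. Kcng2 had -0.81 (adjusted p = 0.346), Kcnk13 -0.39 (adjusted p = 0.395) and Kcnmb1 -1.07 (adjusted p = 0.186) in the 12 libraries.

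Some markers of cell types moved beside these channel genes in the 10 libraries, where 5.63% of all tested genes fell and 1.77% rose. Of 8 markers of all neurons 0 passed. Their summed level was 6386 to 6968 CPM in Q84 and 6682 to 8250 CPM in WT (p = 0.0317 in a two-sided exact permutation test, unadjusted). With the 12 libraries as labelled, this sum gave p = 0.0152 in the two-sided exact permutation test. Of 8 markers of nonpeptidergic nociceptors 6 fell (638 to 838 CPM in Q84, 891 to 1698 CPM in WT). Of 6 markers of peptidergic nociceptors 3 fell (1271 to 1938 CPM in Q84, 2354 to 2892 CPM in WT), and of 9 markers of large myelinated neurons 3 fell (1550 to 2001 CPM in Q84, 2036 to 2665 CPM in WT). Each of these 3 sums gave p = 0.00794 in that exact permutation test. That is the smallest value the test can give with 5 libraries in each group. With the 12 libraries as labelled, the two-sided exact permutation test gave p = 0.00649 for the peptidergic sum. For the nonpeptidergic sum it was p = 0.0606 and for the large myelinated sum p = 0.273 in the same exact permutation test. The library labelled Q84 female 5 had 1776, 2373 and 3282 CPM in these 3 sums, and the library labelled WT female 2 had 1267, 1989 and 2285 CPM. Of 8 mural and vascular markers 1 fell, Rgs5, while the median log2 fold change of the 8 was 0.35, above 0. Their sums were 204 to 249 CPM in Q84 and 368 to 551 CPM in WT (p = 0.00794 in that permutation test, and p = 0.0433 in it over the 12 libraries as labelled). The sum was 523 CPM in the library labelled Q84 female 5 and 319 CPM in that labelled WT female 2. None of 8 satellite glia markers (of which Kcnj10 is also in the second potassium channel list), 8 Schwann cell, 8 macrophage, 5 red blood cell and 6 skeletal muscle markers passed, and 1 of 6 fibroblast markers rose, Pdgfra. The sums of these non-neuronal lists other than the mural one gave p = 0.103 or more in that permutation test over the 10 libraries. With the 12 libraries as labelled, the fibroblast sum gave p = 0.0303 in the two-sided exact permutation test. The others gave p = 0.154 or more in the same exact permutation test. No marker was at 0 in any library, and in the 12 libraries 0 markers of any list passed. The part of these cell types in the results was not tested.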

How the data were processed

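Poly(A) RNA of 12 dorsal root ganglion libraries was sequenced. Each deposited table lists, per the file headers, 116313 transcripts with the authors' estimated counts and TPM in the format of kallisto. STAR 2.7.10b, kallisto 0.46.2 and the build GRCm39 are named per the submitters' processing notes, without their roles, and the transcript release was not given in the sources used here. Estimated counts as deposited carry no scaling between libraries, whereas TPM as deposited account for transcript length and have a common sum.

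Transcripts were matched by identifier to GENCODE M21, an annotation of GRCm38 (98.3% matched, leaving out 0.751 to 0.804% of each library's counts). The estimated counts of a gene's transcripts were then added up and rounded. Genes with a mean of 0.5 CPM or more over the 12 libraries were scaled with TMM and tested with the robust quasi-likelihood test of edgeR 4.0.16 on sex and genotype, with Benjamini-Hochberg adjustment over all tested genes and a threshold of 0.05. Standard errors are the log2 fold change over the root of the F statistic. CPM values carry the TMM factors of the 12 libraries, and the number of libraries and the spread between them limit the precision. Reads of similar transcripts are divided by likelihood.

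The members, the lists and the 10-library comparison were chosen with earlier results of these data known. Values per library are given for members that passed and, in subfamilies where none passed, for the 2 of smallest p. Of the further potassium channel genes that passed, 1 is counted but not reported here. DESeq2 1.42.0, limma-voom (limma 3.58.1), other scaling and filters, length-scaled TPM, protein-coding transcripts, a replicate block, females only, no sex term, and each library left out in turn, were tried as alternatives. The edgeR, limma-voom and DESeq2 tests were checked on simulated counts, where DESeq2 made more false calls than its threshold allows. The counts of calls of DESeq2 are therefore taken as less strict. The simulated counts used spreads estimated by edgeR and held no library against its label, and the false calls of edgeR and limma-voom are not given here. Between replicates of 1 group the chi-square per degree of freedom was 30.9 or more, so none agreed within sampling noise.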

Additional observations from a re-analysis of the deposited data

Results flagged for a closer look

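Among the 5 libraries labelled Q84 female, single values stood far from the other 4 in 11 of 36 potassium channel genes, where chance flags about 1 in 20 groups. In 10 of the 11 the outlying library was the one labelled Q84 female 5, whose Atxn3 transcript goes against its label, and in all 10 it was the highest. The values were 314 CPM for Kcnab1 (next 196), 3.94 CPM for Kcnf1 (next 1.31), 62.1 CPM for Kcnv1 (next 39.2), 13.6 CPM for Kcnc1 (next 5.07) and 18.1 CPM for Kcnc4 (next 11.3). They were 223 CPM for Kcnh7 (next 121), 27.7 CPM for Kcnq3 (next 15.3), 20.1 CPM for Kcnq5 (next 10.9), 7.29 CPM for Kcnn2 (next 3.82) and 22.1 CPM for Kcnt1 (next 9.74). These genes come from 1 library and are not independent of each other. The share of such flags over all genes was not computed, so they are not a trait of these channels. Over genes in general, that library had a chi-square per degree of freedom of 129 to 199 against the other Q84 females. Among the other Q84 females it was 31.7 to 86.8. In the remaining one, the library labelled Q84 female 1 was highest for Kcnt2, at 21.5 CPM (next 19.1).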

How the results depend on the processing

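The direction of the members and further channel genes named as past the threshold, and of Kcnq3, Kcnq5, Kcnt2 and Kcnn2, did not reverse under any alternative run. In the 12 libraries the count of lower members was 0 with edgeR, 6 with DESeq2, 5 without the sex term and 0 to 13 when 1 library was left out. Over all genes in these libraries, lower and higher calls were 1 and 0 with edgeR, 409 and 143 with DESeq2, 177 and 66 without the sex term and 10 and 5 without the filter, lower calls were 0 in females only, and leaving out 1 library gave 0 to 790 lower and 0 to 234 higher. In the 10 libraries, leaving out 1 library gave 6 (without the Q84 male) to 17 (without WT male 1) lower members and 0 to 1 higher members, with 7 lower without WT female 1 and 8 without WT female 3. DESeq2 gave 15 lower and 2 higher members, as did the model without the sex term. Over all genes DESeq2 then called 1236 lower and 531 higher, and the model without the sex term 1046 lower and 397 higher. Over all genes, leaving out 1 of the 10 gave 504 to 1309 lower and 86 to 607 higher calls. Kcna3 passed in the unfiltered 10-library fit (log2 fold change -1.67, adjusted p = 0.0429) but not under filterByExpr (-1.66, adjusted p = 0.0545). The mitochondrial difference among the females of the 10 libraries was 2.18 percentage points (two-sided exact permutation p = 0.0667). Across libraries with the same replicate number the correlation of deviations ran between -0.214 and 0.328, so the numbers were not taken to pair samples. With a replicate block the 12 libraries gave 10 lower members, 537 lower genes and 113 higher genes, and the 10 libraries gave 10 lower and 1 higher member, 557 lower genes and 141 higher genes. Numbers 4 and 5 occur among Q84 females alone, so the block drops those libraries. The cause of these differences was not tested. With 1 Q84 male, a difference between sexes was not examined.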
